A study of Mus musculus with 8 samples.

Results

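Delta cells are the somatostatin-secreting cells of the pancreatic islet, and their nuclei were profiled in cultured mouse islets with and without Exendin-4 (Ex-4), a long-lived peptide that activates the receptor for GLP-1. The comparison was Ex-4 minus CON (untreated) within wild-type (WT) islets and within Med14S983A islets. It rests on 4 of the 54 pools in the deposited table, since the table holds 1 pool of nuclei for each of 6 conditions and 9 annotated cell types. The other 2 conditions received forskolin (FSK), a direct activator of adenylyl cyclase, and are given only as reference levels. Med14S983A islets came from whole-body knock-in mice in which serine 983 of Med14, a scaffold subunit of the Mediator complex, is replaced by alanine, so every islet cell type and every other tissue carried the mutation. About 100 hand-picked islets per sample were cultured with 10 nM Ex-4 for 16 h or left untreated, and their DAPI-sorted nuclei were fixed and barcoded by condition. The number of animals, their age and sex are not given in the sources used here. With 1 pool per condition there is no replicate error and no test of the treatment, so every difference below compares 2 pools, and the intervals (95%, exact Poisson or binomial) cover counting error only. Fewer delta cells and less RNA per nucleus cannot be told apart in pooled columns.

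The GLP-1 receptor couples to the stimulatory G protein and raises cAMP, which activates protein kinase A and through it the transcription factor CREB and its CRTC coactivators. Somatostatin released by delta cells restrains neighbouring beta and alpha cells. Delta cells are electrically excitable, extend neurite-like processes and express many genes that are otherwise known from neurons, such as channels, synaptic adhesion molecules and glutamate and GABA receptors.

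The delta cell pools held 362410 counts in WT CON, 431797 in WT Ex-4, 566358 in mutant CON and 552609 in mutant Ex-4, so that 1 count was worth 0.0276, 0.0232, 0.0177 and 0.0181 CP10K (counts per 10000 counts of the pool). Their annotation was checked on delta cell markers. Sst, the somatostatin gene, stood at 2.87 CP10K in WT CON delta cells, at 0.0299 in beta cells and at 0 in alpha cells. Hhex, the transcription factor that maintains delta cell identity, stood at 0.938 in WT CON delta cells and at 0 in WT CON beta and alpha cells. Of 14 delta cell markers, Bche was not among the measured genes, Lepr was at 0 in every delta cell pool and Ghsr had 5 counts in WT CON and none in the other 3 pools. The 13 measured delta cell markers summed to 30.6 CP10K without and 18 with Ex-4 in WT, and to 15 without and 14.5 with it in the mutant. The 14 measured beta cell markers summed to 19.6, 11.5, 12.8 and 13.4 CP10K in the same order. Macrophage markers summed to at most 0.0463 CP10K in the 4 pools, and stellate and fibroblast markers were at 0 in both WT pools, at 0.159 in mutant CON and at 0.0905 in mutant Ex-4. Counts of ribosomal RNA linked genes made up 4.08% of WT CON, 10.3% of WT Ex-4, 12.7% of mutant CON and 15.9% of mutant Ex-4 delta cell counts. This share differs between the pools of each comparison below, and its part in the results was not tested beyond a rescaling without these genes.

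Neither the hormone gene of the delta cell nor the incretin receptor genes were called. Sst was 2.87 CP10K in WT CON (counting interval 2.34 to 3.48), 3.27 in WT Ex-4 (2.75 to 3.85), 2.95 in mutant CON (2.52 to 3.43) and 2.84 in mutant Ex-4 (2.41 to 3.32). All 4 intervals overlapped, and the WT ratio of Ex-4 to CON was 1.14 (0.877 to 1.48). Under FSK the Sst level was 6.10 in WT and 5.42 in mutant delta cells. Glp1r, the receptor for Ex-4 itself, was 1.90 CP10K in the WT CON pool, 1.69 in WT Ex-4, 1.87 in mutant CON and 1.34 in mutant Ex-4, with overlapping intervals within each genotype. Under FSK it stood at 0.304 (WT) and 0.475 (mutant), and in WT CON beta cells at 9.39. Gipr, the receptor of the sister incretin GIP, was 1.08, 1.41, 1.70 and 1.38 CP10K in the same 4 delta cell pools. Med14 was low in all of them, at 0.717, 0.324, 0.388 and 0.416 CP10K from 26, 14, 22 and 23 counts, and transcript level does not check a point mutation.

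The somatostatin gene is the textbook target of CREB, which binds a palindromic cAMP response element (CRE) there. The CRE is shown with those of some, not all, of the called genes that carry one, chosen among list members. The 30 bases below are from GRCm39 (the files were made on mm39, the same assembly), read 5′ to 3′ on the strand of the gene, with the element TGACGTCA in capitals. Those of Sst are chr16:23709624-23709653 on the minus strand, and the element begins 67 bases after the start of the canonical GENCODE transcript, inside the annotated first exon.
Sst: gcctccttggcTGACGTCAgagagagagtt
Pax6: tctggccgccgTGACGTCAtccgcgcccgg
Adcy8: cgcccagagccTGACGTCAttgaccatcag
Pde7b: actaaacccttTGACGTCActctcgaaatg
Mapk10: tctctgggcttTGACGTCAtgtgtgctcct

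The other 4 lie upstream of their start sites: Pax6 at chr2:105499154-105499183 (plus strand, element from base -69), Adcy8 at chr15:64795033-64795062 (minus, -64), Pde7b at chr10:20600912-20600941 (minus, -44) and Mapk10 at chr5:103359211-103359240 (minus, -58). Pax6 was higher and the other 3 were lower in WT Ex-4 delta cells, as described below, while Sst was not called. Over the 300 bases before the start site, TGACGTCA was found in 2.12% of 9050 genes measured in delta cells, in 3 of 155 genes called higher (1.94%) and in 5 of 302 called lower (1.66%). The shorter TGACG, searched on both strands and contained in every full element, was found in 26.7% of all these promoters, in 33.5% of those of higher genes and in 17.5% of those of lower genes. A match is a string of letters and not a bound site.

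In WT delta cells Ex-4 was accompanied by lower levels of long genes for channels, adhesion molecules and synaptic proteins. Levels were higher for genes of the list named ribosomal RNA linked and for RNA processing genes. A gene was called where log2(CP10K + 1) differed by at least 1.5-fold (0.585) between the 2 pools. Of 9256 genes with enough signal in the delta cell pools, 161 were called higher (1.74%) and 307 lower (3.32%) in WT Ex-4. The counting intervals of all 468 were apart, but the threshold nearly ensures this at these depths, so it adds no support to the calls. The median difference over the 9256 genes was 0.05, that of the higher genes 0.69 and that of the lower genes -0.76. Just inside and outside the threshold lay Rexo4 (0.59) and Ddx46 (0.58) on the higher side, and Rasgrf1 (-0.59) and Hmgcll1 (-0.58) on the lower side. The split depended on the scale. With log2(CP10K + 0.379), which gives more weight to low genes, 842 genes were called higher and 614 lower. With mitochondrial and ribosomal RNA linked genes taken out of the totals 225 were higher and 244 lower, and with the trend on gene length removed 130 and 121. Of the lower genes 4 (Trabd2b, Ppp1r14c, Hgf and Syt6) are listed at 0 in every cell type of WT Ex-4.

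Kcnd2 (chr6:21214866-21729804, plus strand, GRCm39), which encodes an A-type potassium channel, had the lowest WT difference. It stood at 24.0 CP10K in WT CON (22.4 to 25.6), 5.56 in WT Ex-4 (4.88 to 6.31), 4.04 in mutant CON (3.54 to 4.60) and 3.51 in mutant Ex-4 (3.03 to 4.04). WT CON was the high pool and the other 3 lay together, with a difference of -1.93 in WT and -0.16 in the mutant. Fgf14 (chr14:124211258-124914539, minus strand), an intracellular partner of voltage-gated sodium channels, gave the same picture at 35.9 CP10K in the WT CON pool, 8.78 in WT Ex-4, 8.90 in mutant CON and 8.14 in mutant Ex-4. Unc5c, a receptor for the guidance cue netrin, stood at 26.0, 7.30, 5.53 and 5.34 CP10K in these pools. For Nrg1, the ErbB ligand neuregulin 1, the 4 levels were 32.2, 10.0, 7.89 and 7.42 CP10K. Each of these genes was 3.21 to 4.31 times higher in WT CON than in WT Ex-4, and the mutant differences of all 4 lay between -0.16 and -0.04.

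The remaining 8 of the 12 lowest genes by the naming rule were Cacna2d3 (an auxiliary calcium channel subunit), Prr16, the long noncoding RNA Gm32647, Dlg2 (a postsynaptic scaffold), Ncam2 (a neural cell adhesion molecule), Trpm3 (a cation channel), Cpne4 and Olfm3. Their WT differences ran from -1.55 for Cacna2d3 to -1.39 for Olfm3. Trpm3 was the most abundant of them, at 32.3 CP10K in the WT CON pool, 11.2 in WT Ex-4, 8.78 in mutant CON and 7.33 in mutant Ex-4. Cacna2d3 was 11.5, 3.29, 3.48 and 2.99 CP10K in the same order. WT CON again stood alone, while FSK levels of Cacna2d3 were 20.6 in WT and 16.2 in the mutant, above WT CON. Olfm3 spans 221661 bases and Dlg2 1972576 bases in GENCODE. Other annotated genes overlap Cacna2d3 (10 genes) and Dlg2 (35 genes), and reads could be split among them.

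**Figure D1:**
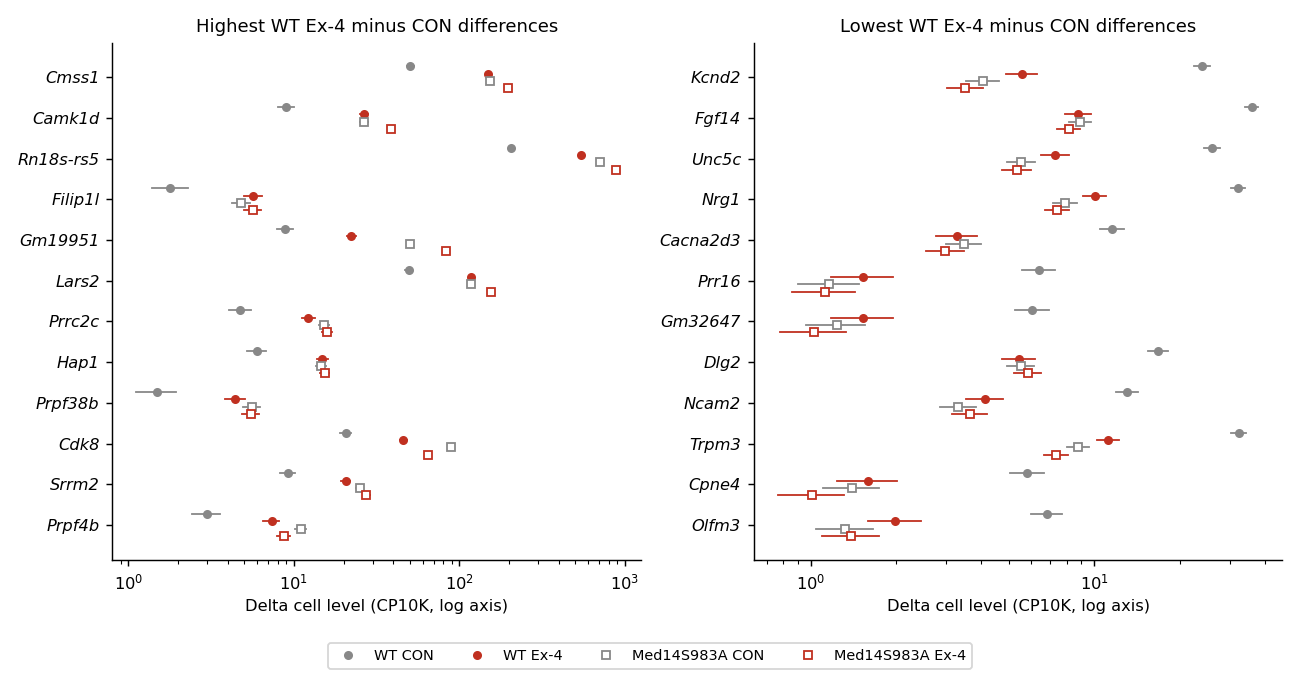
Levels (CP10K, log axis) of the 12 genes with the highest (left) and the 12 with the lowest (right) WT Ex-4 minus CON difference in delta cells. Each point is 1 pool (WT CON, WT Ex-4, Med14S983A CON, Med14S983A Ex-4) and each line its 95% counting interval. WT CON is the lowest pool for each of the higher genes and the highest for each of the lower genes, for Kcnd2 at 24.0 against 3.51 to 5.56.

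On the higher side the first 6 genes by size belong to the ribosomal RNA linked list: Cmss1 (1.54), Camk1d (1.47), the 18S ribosomal RNA copy Rn18s-rs5 (1.4), Filip1l (1.26), Gm19951 (1.25) and Lars2 (1.23). Rn18s-rs5 was 205 CP10K in the WT CON pool, 542 in WT Ex-4, 704 in mutant CON and 888 in mutant Ex-4. Cmss1, annotated as a small ribosomal subunit factor, stood at 50.6, 149, 153 and 198 CP10K. These levels ascended over the 4 pools in the order given, as did the share of ribosomal RNA linked counts. Several of these genes cannot be read as separate measurements. Cmss1 and Filip1l overlap on opposite strands of chromosome 16, and the lncRNA Gm19951 on chromosome 12 shares 155 words of 31 bases with the span of each. Gm19951 shares 0 such words with Camk1d, Lars2, Cdk8, Gphn and Rn18s-rs5, and Rn18s-rs5 shares 0 with Cmss1, Filip1l, Camk1d and Lars2. For Camk1d, Lars2, Cdk8 and Gphn the list name is thus a label that this search does not bear out. Of 15 members of this list measured, 13 passed the filter, and 9 of them were called higher in WT and 1 in the mutant.

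The other 6 of the 12 highest genes were Prrc2c (1.21), Hap1 (1.19), Prpf38b (1.12), Cdk8 (1.12), Srrm2 (1.08) and Prpf4b (1.07). Hap1, the huntingtin-associated protein of vesicle transport, stood at 5.96 CP10K in the WT CON pool, 14.9 in WT Ex-4, 14.6 in mutant CON and 15.3 in mutant Ex-4, and it was 16.6 and 18.6 under FSK in WT and mutant. Prpf38b, a splicing factor, was 1.49, 4.42, 5.56 and 5.48 CP10K in the 4 pools. Srrm2, a scaffold of nuclear speckles, stood at 9.19, 20.6, 25.0 and 27.5 CP10K. For these 3 genes WT CON was the low pool. Cdk8, the kinase of the Mediator kinase module, was 20.6 and 45.9 CP10K in WT but 89.1 and 65.0 in mutant CON and Ex-4, and it also belongs to the ribosomal RNA linked list.

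In Med14S983A delta cells the same treatment was accompanied by almost no called genes. Of the 9256 genes, 3 were called higher (0.0324%) and 1 lower (0.0108%). The mitochondrial ribosomal RNAs mt-Rnr1 and mt-Rnr2 were higher by 0.86 and 0.78, from 1.70 to 3.89 and from 1.57 to 3.42 CP10K. Gm19951 was higher by 0.71, from 50.1 to 82.7 CP10K. Col6a6, a collagen VI chain, was lower by 0.59, from 2.63 CP10K (2.23 to 3.09) to 1.41 (1.12 to 1.76). In WT, mt-Rnr1 and mt-Rnr2 were also called higher, at 0.66 and 0.70, whereas Col6a6 was 2.15 in WT CON and 1.81 in WT Ex-4. Over all 9256 genes the differences had an SD of 0.28 (WT) and 0.13 (mutant), and counting intervals were apart for 11% and 1.22% of genes.

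Genes called in WT were then read in the mutant pools. Those pools had no part in the calls, but they entered the mean level that decided which genes were kept. Over the 161 higher genes the median mutant difference was -0.01, with 75 above and 86 below 0, and 10 had mutant counting intervals apart in the same direction. Over the 307 lower genes the median was -0.04, with 122 above and 185 below 0, and 11 had intervals apart in the same direction. The mutant baseline lay where WT Ex-4 did. The median level of the lower genes was 4.11 CP10K in the WT CON pool, 1.85 in WT Ex-4, 1.59 in mutant CON and 1.56 in mutant Ex-4, and it was 3.98 and 3.39 in the WT and mutant FSK pools. For the higher genes it was 1.08, 2.29, 2.37 and 2.52 CP10K in CON and Ex-4 of WT and mutant, and 1.12 and 1.46 under FSK. WT Ex-4 and mutant CON differed past the threshold in 15 genes, whereas WT CON differed from mutant CON in 653. A departure of the single WT CON pool and an effect of Ex-4 in WT cannot be told apart, because every WT difference uses that pool.

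**Figure D2:**
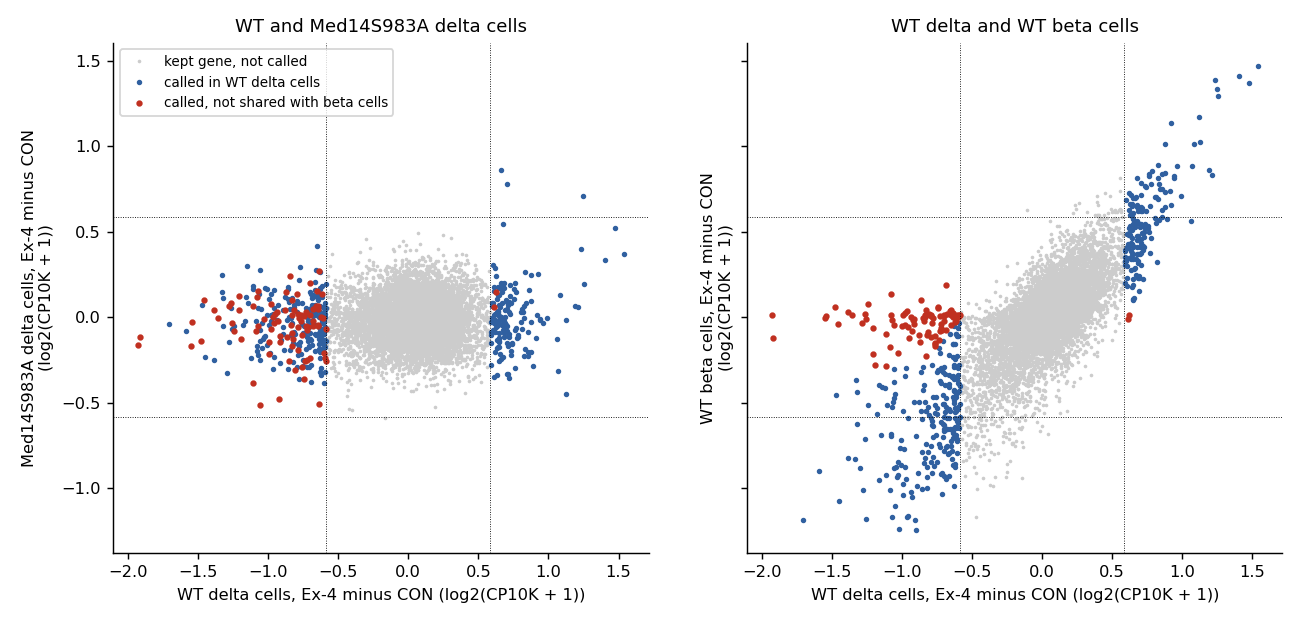
Ex-4 minus CON differences of log2(CP10K + 1) for 9256 genes, WT delta cells on the x axis, against Med14S983A delta cells (left) and WT beta cells (right). Dotted lines mark 1.5-fold, blue points are genes called in WT delta cells and red points those not shared with beta cells. The mutant differences of the called genes lie around 0 (medians -0.01 and -0.04), and the red points lie above -0.29 on the beta cell axis when lower, as their rule requires.

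The next comparison asked which delta cell calls were absent from beta cells of the same islets, whose WT pools held 95 higher (0.941%) and 220 lower (2.18%) genes of 10093. Of the 161 genes higher in delta cells, 65 (40.4%) were also called higher in beta cells, which is 68.4% of the beta cell genes. Of the 307 lower genes, 114 (37.1%) were also called lower in beta cells, or 51.8% of the beta cell genes. In all, 160 of the 161 higher and 267 of the 307 lower genes had the same sign in beta cells, and none was past the threshold in the opposite direction. A delta cell call was counted as not shared where the beta cell difference in that direction was under 0.29 and the delta minus beta difference was at least 0.585. By this rule 2 higher genes (0.0216% of those measured) and 86 lower genes (0.929%) were not shared with beta cells. The 86 include Trabd2b, Ppp1r14c, Hgf and Syt6, which were listed at 0 in every cell type of WT Ex-4. Whether those zeros were measured was not tested.

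The 10 lower genes with the largest delta minus beta difference were Kcnd2, Fgf14, Prr16, Cacna2d3, Gm32647, Ncam2, Olfm3, Gpm6a, Cntnap5b and Rims1. Kcnd2 differed by -1.93 in delta cells and by 0.01 in beta cells, where it stood at 0.0631 CP10K in CON and 0.0738 in Ex-4. Rims1, a scaffold of the vesicle release site, was 2.51 CP10K in the WT CON pool, 0.463 in WT Ex-4, 0.424 in mutant CON and 0.507 in mutant Ex-4 delta cells, and 0.0465 and 0.0604 in WT beta cells. Gpm6a, a neuronal membrane glycoprotein, was 3.28, 0.672, 0.530 and 0.525 CP10K in the 4 delta cell pools and at most 0.0201 in the WT beta cell pools. Their beta cell levels were a small part of those in delta cells. Of the 86 genes, 57 were under 0.1 CP10K in WT CON beta cells and 84 under 1 CP10K, and 75 were at least 10 times higher in delta than in beta cells. At such levels a fold change in beta cells can hardly move log2(CP10K + 1), so the linear ratio of Ex-4 to CON, with its interval, was set beside the difference.

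On the ratio scale the beta cell pools could tell some of these genes apart but not all. The Kcnd2 ratio was 0.232 (0.200 to 0.268) in delta cells and 1.17 (0.604 to 2.29) in beta cells, and these intervals were apart. Cacna2d3 gave 0.285 (0.234 to 0.346) in delta cells against 0.941 (0.536 to 1.65) in beta cells. For Fgf14 they were 0.245 (0.217 to 0.274) and 0.651 (0.460 to 0.916). In 7 genes the beta cell interval lay above 1, among them Gm32647, Cntnap5b, Gabrg3 and, named after their values were seen, Naaladl2, Fstl5 and Plxdc2. By contrast Dscam, an adhesion molecule counted as not shared, had the ratio 0.422 in both cell types (0.382 to 0.465 in delta cells, 0.303 to 0.581 in beta cells), and its beta cell difference of -0.28 goes with a level of 0.445 CP10K in WT CON. Syt1, the calcium sensor of exocytosis, had ratios of 0.388 (0.328 to 0.457) and 0.551 (0.292 to 1.01), which overlapped. Over the 86 genes the intervals of the ratios were apart for 37. The beta cell interval included 1 for 59 of them, lay below 1 for 20 and above 1 for 7, and the median ratio was 0.360 in delta and 0.902 in beta cells.

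Unc5c and Nrg1 show the shared pattern. The Unc5c ratio was 0.280 (0.246 to 0.318) in delta cells and 0.281 (0.247 to 0.320) in beta cells, and the Nrg1 ratio 0.312 (0.278 to 0.348) and 0.326 (0.279 to 0.381). Dlg2 and Trpm3 were lower in both cell types, with ratios apart: Dlg2 had 0.323 (0.277 to 0.376) in delta cells against 0.599 (0.525 to 0.683) in beta cells. Trpm3 had 0.346 (0.311 to 0.385) against 0.455 (0.438 to 0.473).

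Of the 161 higher genes 65 were shared, 94 lay between the limits for shared and not shared, and 2, Anks1 and Als2cl, were not shared. Anks1, a cytoplasmic adaptor protein, was 1.02 CP10K in the WT CON pool, 2.08 in WT Ex-4, 1.64 in mutant CON and 1.76 in mutant Ex-4 delta cells, with a ratio of 2.04 (1.38 to 3.08). In beta cells, where it was more abundant at 4.27 and 4.23 CP10K, the ratio was 0.990 (0.915 to 1.07). Als2cl had only 2 counts in WT CON and 27 in WT Ex-4 delta cells, and its ratio interval (2.85 to 98.3) overlapped that of beta cells (0.410 to 4.71). Compared by ratio intervals alone, 21 of the 161 higher genes had a larger ratio in delta than in beta cells. Among the list members these were Pax6 at 1.78 (1.45 to 2.19) against 1.21 (1.14 to 1.29), Chga at 1.89 (1.48 to 2.43) against 1.35 (1.28 to 1.41) and Gnai2 at 2.31 (1.43 to 3.85) against 1.24 (1.08 to 1.42).

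**Figure D3:**
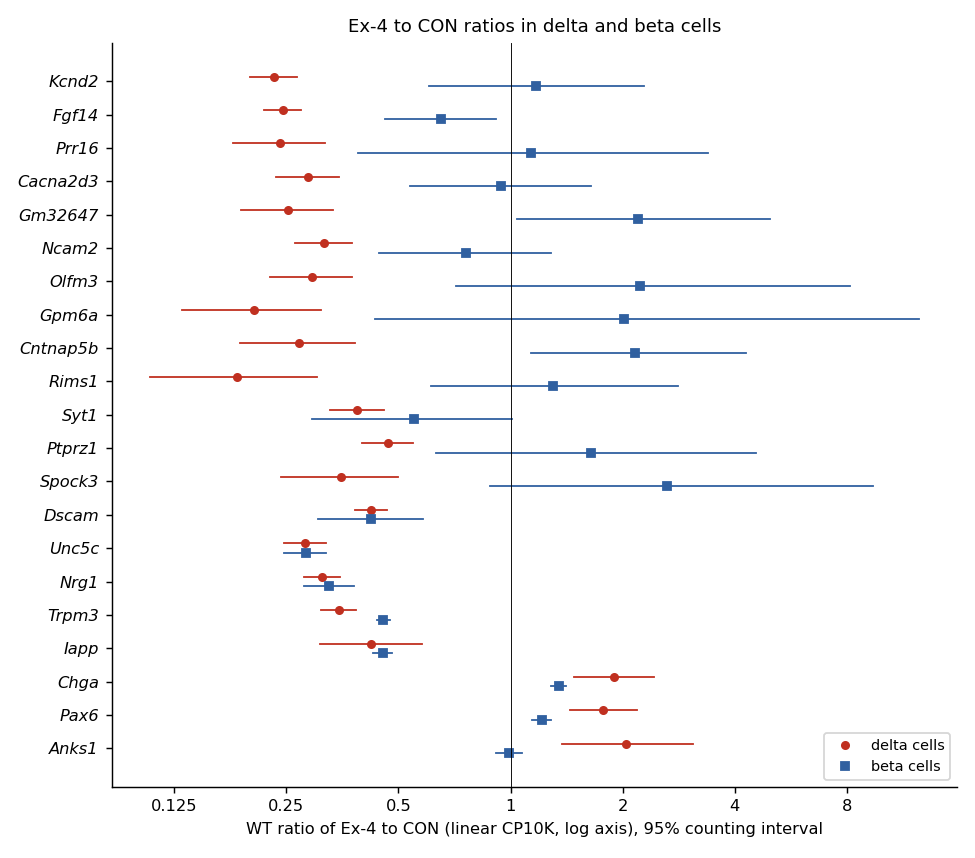
Linear ratio of WT Ex-4 to WT CON (log axis) in delta (circles) and beta cells (squares) for the 10 lower genes with the largest delta minus beta difference and for list members named in the text. Lines are 95% counting intervals. Kcnd2 lies at 0.232 in delta and 1.17 in beta cells, whereas Dscam lies at 0.422 in both.

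In alpha cells of the same islets, where 1.71% of 9487 genes were called higher and 4.02% lower in WT Ex-4, 27 of the 86 genes were also lower past the threshold and 44 differed by less than 0.29 in that direction. Fgf14 was lower in alpha cells by 1.32 on the log2 scale, with a ratio of 0.280 (0.209 to 0.373). For Kcnd2 the alpha cell levels were 0.310 and 0.177 CP10K and the ratio 0.572 (0.205 to 1.49). In mutant delta cells the median difference of the 86 genes was -0.04, ranging from -0.52 to 0.27, and 5 had counting intervals apart. Their median delta cell level was 2.84 CP10K in the WT CON pool, 1.03 in WT Ex-4, 0.892 in mutant CON and 0.832 in mutant Ex-4.

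Among the markers of delta cells themselves, 3 of 11 kept were called lower in WT Ex-4 and none higher, with a list median of -0.44 in WT and 0.00 in the mutant. The lower genes were 27.3% of those kept, against 3.32% of all kept genes. Ptprz1, a receptor phosphatase, stood at 12.7 CP10K in the WT CON pool, 5.93 in WT Ex-4, 4.94 in mutant CON and 5.27 in mutant Ex-4. Spock3, a secreted proteoglycan, was 2.98, 1.04, 0.759 and 0.760 CP10K, and the urea cycle enzyme Arg1 was 3.15, 1.55, 1.48 and 1.5. All 3 counted as not shared with beta cells, where none exceeded 0.0436 CP10K in either WT pool. Casr, the calcium-sensing receptor, was 4.22 and 2.69 CP10K in WT CON and Ex-4 and 2.12 and 1.48 in the mutant pools, short of the threshold in both. Crhr2, the receptor through which the beta cell peptide urocortin 3 stimulates delta cells, had 16 counts in WT CON and 13 in mutant CON and is listed at 0 in every cell type of both Ex-4 conditions, so no fold is given. The identity genes Sst, Hhex and Rbp4 were not called. Of 11 beta cell markers kept in the delta cell pools, 4 were called lower with Ex-4 in WT (36.4%, against 3.32% of all kept genes): Iapp, Slc2a2, Slc30a8 and Ero1b. The 11 WT differences of this list had a median of -0.11, with 4 above 0 and 7 below. The summed level of all 14 measured markers was 19.6 CP10K in WT CON and 11.5 in WT Ex-4 delta cells. Slc2a2, the glucose transporter GLUT2, was 2.12 CP10K in WT CON and 0.556 in WT Ex-4 delta cells, against 12 and 6.91 in beta cells. Whether these counts come from delta cells or from free RNA of beta cells was not tested.

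Among ion channel genes of delta cells the share of lower calls was above the background of 3.32%, but many are long. Of 21 potassium channel genes kept, 8 were called lower in WT and none higher, and the list median was -0.37 (WT) and 0.00 (mutant). They include the Kv4 channel gene Kcnd2 with the genes of its auxiliary subunits Dpp6, Dpp10 and Kcnip4, and Kcnj3, a channel subunit opened by inhibitory G proteins. Kcnj3 was 1.13 CP10K in WT CON (41 counts), 0.116 in WT Ex-4 (5 counts), 0.194 in mutant CON and 0.217 in mutant Ex-4. The ATP-sensitive channel, which couples glucose to membrane potential, was not called: Abcc8 was 28.0, 28.3, 28.3 and 29.5 CP10K in the 4 pools. Kcnj11 was 0.662, 0.95, 1.13 and 1.07. Among 22 calcium channel and store genes 3 were lower (Cacna2d1, Cacna2d3 and Itpr1) and Atp2a3 was higher, and among 13 sodium and cation channel genes Scn3a and Trpm3 were lower. Over 200 kb, where 27.0% of all kept genes were lower, 7 of 14 potassium channel genes, 3 of 11 calcium genes and 1 of 3 sodium and cation channel genes were lower. With the trend on gene length removed 4 of the potassium channel genes (Kcnd2, Dpp10, Kcnb2 and Kcnj3) and 1 gene in each of the other 2 lists were still lower. Dpp6 (-0.56) and Kcnip4 (-0.38) were then not called.

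Receptors by which delta cells sense transmitters were lower in 5 of 13 kept genes, with a list median of -0.50 in WT and -0.05 in the mutant. The share of lower genes was 38.5%, against 3.32% of all kept genes. All 5 are among the 7 members that span over 200 kb, a length at which 27.0% of all kept genes were lower. Chrm3, the muscarinic M3 receptor, was 6.35 CP10K in the WT CON pool, 3.10 in WT Ex-4, 3.37 in mutant CON and 2.82 in mutant Ex-4. WT CON was again the high pool. Grm8 and Grik2, a metabotropic and an ionotropic glutamate receptor, and the GABA-A subunit gene Gabrg3 were also lower. Grm8, Grik2 and Gabrg3 counted as not shared with beta cells, whereas Chrm3 had ratios of 0.489 in delta and 0.536 in beta cells. No gene among 10 kept peptide receptors was called. With the length trend removed, 1 of the 5 was still called.

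Among the gene lists, that of neuronal adhesion and axon guidance held the most lower genes. It is a long list of 72 names and was drawn up with earlier results of these data known. Of 58 kept, 26 were called lower in WT (44.8%) and none higher, with a median of -0.43 in WT and 0.01 in the mutant. Dscam was 34.0 CP10K in the WT CON pool, 14.4 in WT Ex-4, 10.0 in mutant CON and 9.08 in mutant Ex-4. Robo2, a Slit receptor of islet architecture, was 5.90, 2.55, 2.93 and 3.08 CP10K in delta cells but 20.9 and 8.77 in WT beta cells, where 20 members of the list were also lower. Most of these genes are very long: 47 of the 58 span over 200 kb, of which 24 were lower (51.1%), against 27.0% of all 803 kept genes of that length. With the length trend removed 10 were lower and 8 higher of 57, and the median was 0.03.

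Exocytosis and hormone genes moved in both directions. The release machinery genes Rims1, Syt1, Cadps and Erc2 were lower among 24 kept (16.7%, against 3.32% of all kept genes), with a list median of -0.13. Over 200 kb 4 of 10 members were lower, against 27.0% of all kept genes of that length. With the length trend removed Rims1 and Syt1 were still lower, Cadps (-0.36) and Erc2 (-0.08) were not, 1 member was higher and the median was 0.0044. The granule proteins chromogranin A and B were higher: Chga was 2.62 CP10K in the WT CON pool, 4.96 in WT Ex-4, 5.97 in mutant CON and 5.50 in mutant Ex-4. Chgb was 1.46, 2.89, 2.84 and 2.24 CP10K in that order. The prohormone-processing enzymes Pcsk2 and Pam were lower in WT, Pcsk2 at 57.2, 37.5, 37.1 and 37.7 CP10K and Pam at 9.85, 5.84, 4.17 and 4.96. Under FSK Pam was 30.9 and 31.5 CP10K, above every CON and Ex-4 pool. Removing the length trend ended the calls of Chga, Chgb, Pcsk2 and Pam, whose differences then ran from -0.39 to 0.57.

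Among 19 islet transcription factors Pax6 was higher and 3 genes, Rfx3 and Glis3 among them, were lower in WT. The lower genes were 15.8% of this list, against 3.32% of all kept genes. Over 200 kb 3 of 6 members were lower, against 27.0% of all kept genes of that length. Pax6, required for islet hormone transcription, was 3.81 CP10K in WT CON (3.20 to 4.50), 6.76 in WT Ex-4 (6.01 to 7.58), 6.52 in mutant CON and 6.75 in mutant Ex-4. Rfx3, a ciliogenic factor of islet development, was 8.31, 3.15, 2.60 and 2.53 CP10K. Both were on the same side in beta cells, at 0.24 and -0.95, of which only the Rfx3 difference passed the threshold.

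The cAMP pathway is the route by which Ex-4 acts, and most of its genes were not called. Of 22 core genes the adenylyl cyclases Adcy2 and Adcy8 were lower, and neither was lower in beta cells, where their levels were at most 0.0369 CP10K. Adcy8 was 3.23 CP10K in the WT CON pool, 1.41 in WT Ex-4, 1.45 in mutant CON and 0.977 in mutant Ex-4. Gnas, encoding the stimulatory G protein subunit, was 29.4, 20.1, 18.3 and 21.0 CP10K, a WT difference of -0.53 that fell short of the threshold, and stood at 142 and 115 CP10K under FSK. Among 30 genes that dampen the pathway the phosphodiesterases Pde3a, Pde3b, Pde4d and Pde7b were lower with Rgs7 and Pkia, and Gnai2 was higher. The lower genes were 20% of this list, against 3.32% of all kept genes. The list median was -0.09 in WT, with 13 members above 0. Over 200 kb 4 of 10 members were lower, against 27.0% of all kept genes of that length. Pde4d was 33.1, 18.2, 13.6 and 14.9 CP10K in the 4 pools. With the length trend removed Adcy8, Pde3a and Pde7b were still lower, whereas Adcy2, Pde3b, Pde4d, Rgs7, Pkia and Gnai2 were not called, with Pde4d at -0.19. Of 16 kept genes known to be induced by cAMP, which include Pde4d, none was called higher, and the list median was 0.08 (WT) and 0.02 (mutant).

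Among the gene lists, that of RNA processing held the most higher genes, and it too was drawn up with earlier results of these data known. Of 44 kept, 17 were called higher (38.6%, against the background of 1.74%) and none lower, 43 of the 44 had a positive difference, with list medians of 0.50 (WT) and -0.01 (mutant). Son, a speckle scaffold protein, was 7.28 CP10K in the WT CON pool, 14.9 in WT Ex-4, 18.9 in mutant CON and 18.7 in mutant Ex-4. In beta cells 14 of the 44 were higher. Histone H3 methyltransferases were higher for Kmt2b, Kmt2d, Ehmt2 and Dot1l among 20 kept (20%, against 1.74% of all kept genes), and lower for Smyd3. Kmt2b, which methylates lysine 4 of histone H3, was 0.386, 1.51, 1.68 and 1.32 CP10K. Cytosolic ribosomal protein genes and nuclear respiratory chain genes had no calls among 37 and 32 kept, and Mediator subunits had Cdk8 alone among 21. Low levels compress differences on the log2(CP10K + 1) scale. Of the 37 ribosomal protein genes kept 35 had a positive difference, and 8 were called higher with a pseudocount of 0.379, but their median was -0.009 with the length trend removed. All 81 in the table summed to 5.10 CP10K in the WT CON pool, 11.9 with Ex-4, and 12.1 and 11.9 in the mutant CON and Ex-4 pools. With the length trend removed 12 of the RNA processing genes and 2 of the methyltransferase genes were still higher.

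**Figure D4:**
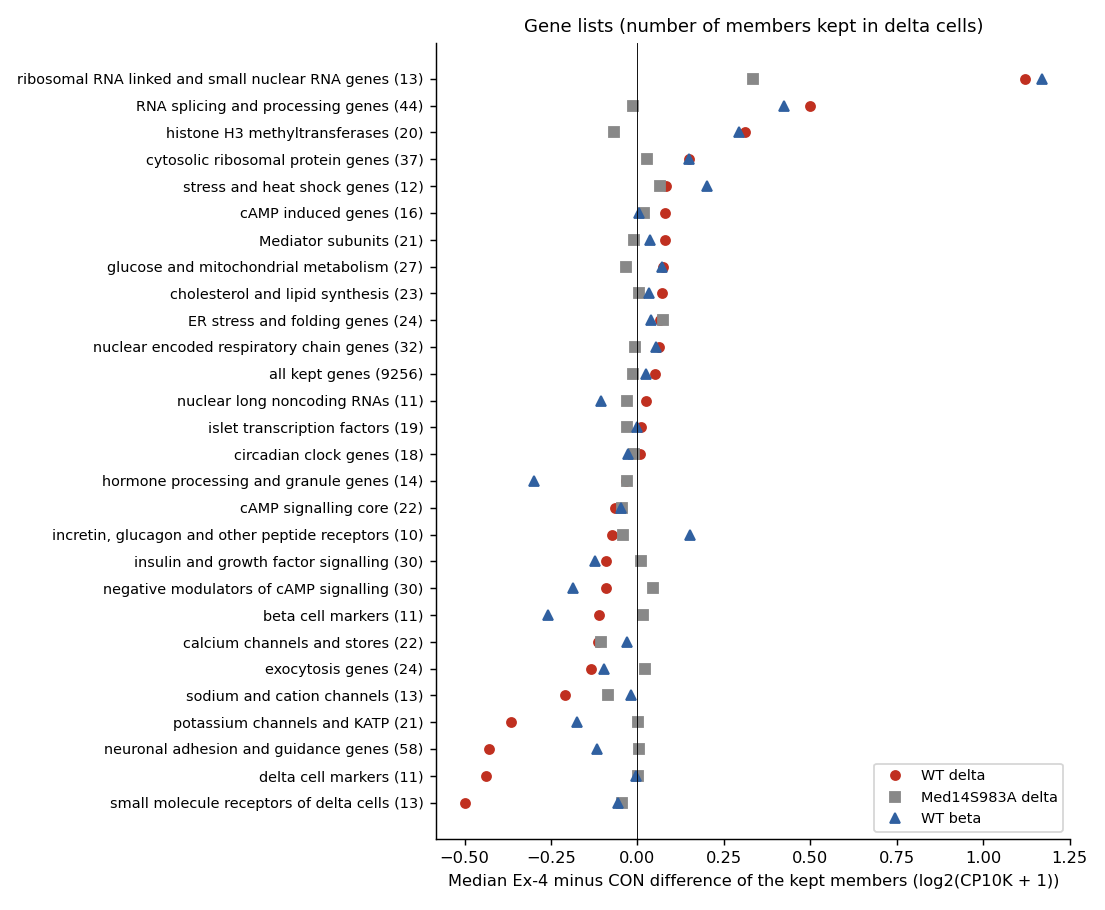
Median Ex-4 minus CON difference of log2(CP10K + 1) over the kept members of each gene list with at least 10 members, in WT delta cells (circles), Med14S983A delta cells (squares) and WT beta cells (triangles). The WT delta cell medians reach from -0.50 for small molecule receptors to 1.12 for ribosomal RNA linked genes, and those of the mutant stay between -0.11 and 0.34.

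Called genes differed in length. The median genomic span in GENCODE was 30.7 kb for the higher, 315 kb for the lower and 39.6 kb for all kept genes. In WT delta cells the median difference was 0.14 for genes under 20 kb, -0.10 between 100 and 200 kb, -0.28 between 200 and 500 kb and -0.47 for those of 500 kb and over. In the mutant it stayed between -0.03 and -0.01 in all 6 length classes. With the WT trend on length removed, 130 genes were higher and 121 lower in WT, and 115 of the 307 lower genes were lower in both readings. Kcnd2 and Fgf14 were then lower by 1.53 and 1.45 on the log2 scale. Of the 86 genes not shared with beta cells, 47 were also not shared with the trend removed in both cell types.

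Genes typical of delta cells held a larger share of lower calls than other genes of the same length. They were taken, after the data had been seen, from the FSK pools, which are outside the Ex-4 comparison but enter the filter for kept genes. Median levels of the 307 lower genes in the FSK pools were 3.98 (WT) and 3.39 (mutant) CP10K, nearer to WT CON (4.11) than to WT Ex-4 (1.85). This choice can therefore favour genes that are high in WT CON. How far it bears on the share of lower calls was not tested. In all, 315 kept genes had a summed FSK level at least 3 times that of beta and of alpha cells. In WT Ex-4, 83 of them were called lower (26.3%) and none higher, with a median of -0.25 in WT and -0.04 in the mutant. They were also more abundant, with a median of 0.690 CP10K in WT CON against 0.359 for the other kept genes. Of those spanning over 200 kb 60 of 95 were lower (63.2%), against 157 of 708 other genes of that length (22.2%). Between 100 and 200 kb the shares were 13 of 71 (18.3%) against 3.84%, and under 100 kb 8 of 141 (5.67%) against 0.330%. Among genes over 200 kb the groups also differed in level, with a median of 2.81 CP10K in WT CON for the delta cell genes against 2.12 for the others, and on the linear scale their median ratios of Ex-4 to CON were 0.442 and 0.688.

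**Figure D5:**
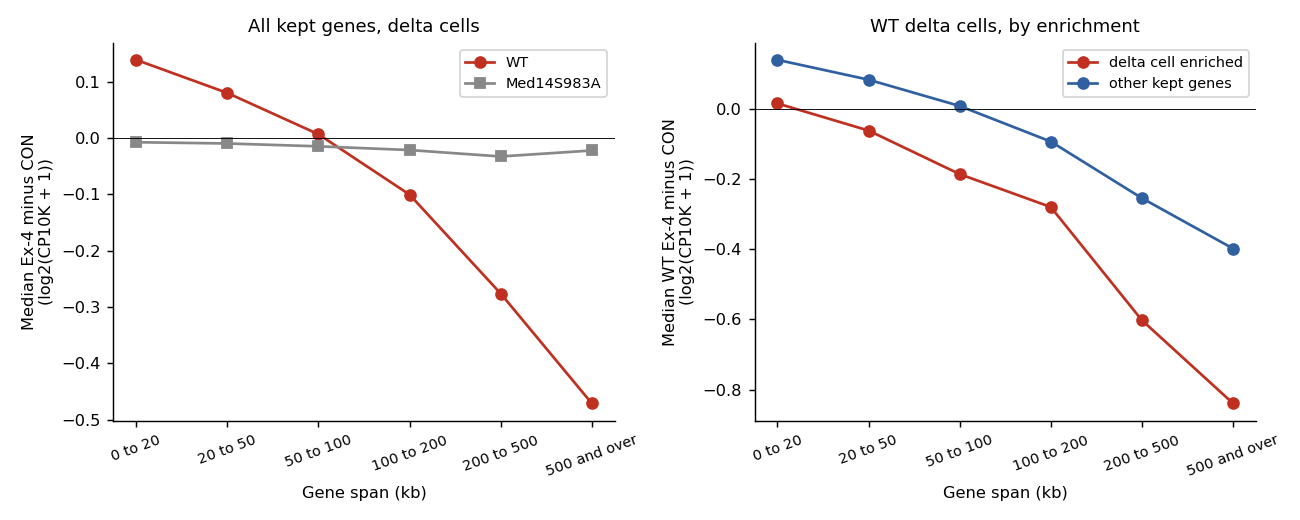
Median Ex-4 minus CON difference of log2(CP10K + 1) in delta cells by genomic span of the gene (kb). Left, all kept genes in WT and Med14S983A; right, WT delta cells, genes enriched in delta cells under FSK against the other kept genes. The WT medians descend from 0.14 to -0.47 with span while those of the mutant stay near 0, and the delta cell genes lie below the others in every class.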

How the data were processed

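Nuclei of islets under 6 conditions were barcoded in round 1 by condition and sequenced as 8 sublibraries, each of which holds every condition, so the sublibraries are not replicates of a treatment. According to the study's methods the reads were processed with split-pipe on mm39 and Seurat, nuclei with extreme counts or high mitochondrial content were removed, clusters were annotated with CellKb after Harmony, and samples were downsampled to an equal number of nuclei. The annotation release, the strand setting and whether counts were corrected before pooling are not given in the sources used here. The deposited values are the natural log of CP10K + 1 for 17362 genes in 54 columns, 1 per condition and cell type. Undoing the log gave whole counts in all columns (largest distance from a whole number 6.39e-05), and their totals gave the depth. No column was left unmapped.

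Differences are Ex-4 minus CON of log2(CP10K + 1), called at 1.5-fold without a test. Genes were kept where the mean deposited value over the 6 delta cell columns reached the 40th percentile of genes above 0 (0.0839). Poisson, Clopper-Pearson and ratio intervals (95%) came from the counts with scipy. For a count of 0 a floor of 3 counts was used as a guide to depth. Genes named are Sst, Glp1r, Med14, members of the lists, the 12 highest and 12 lowest WT differences among the more abundant of the kept genes (mean not below the median), up to 10 genes each way not shared with beta cells by delta minus beta difference, and the calls in the mutant. The members and lists were chosen with earlier results of these data known. Spans, start sites and sequences are from GENCODE M39 on GRCm39, which matched 16531 of the gene names. Recovery of counts and calls was tested on simulated data. Alternatives covered the pseudocount, the filter, the threshold, centring, rescaling, gene length and the rule for sharing. Scripts ran in Python 3.11.15 with scipy 1.17.1 for intervals and statsmodels 0.14.6 for the length trend, plotted with matplotlib 3.10.9. Results that name some genes are not reported here.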

Additional observations from a re-analysis of the deposited data

Results flagged for a closer look

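In 5 genes called in WT delta cells the mutant counting intervals were apart in the opposite direction; the difference between the genotypes was not tested. Cdk8 was higher in WT Ex-4 (20.6 to 45.9 CP10K) and its mutant difference was -0.45 (89.1 to 65.0). Prpf4b, a kinase of the spliceosome, was 2.98 and 7.34 CP10K in WT with a mutant difference of -0.31 (11 to 8.69). Peg3, an imprinted zinc finger gene named after its values were seen, was 27.0 and 57.6 CP10K in WT with a mutant difference of -0.13 (62.2 to 56.8). Atg4a, an autophagy protease gene named in the same way, was 4.77 and 9.68 CP10K in WT with a mutant difference of -0.29 (10.2 to 8.16). Pde3b, a cAMP phosphodiesterase, was lower in WT (3.61 to 1.95 CP10K) and its mutant difference was 0.42 (1.32 to 2.10).

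Outside the Ex-4 comparison, Sst stood above its CON level in the FSK delta cell pools, at 6.10 CP10K in WT and 5.42 in Med14S983A, against 2.87 and 2.95 under CON. Each is 1 pool, and the forskolin dose and time are not given in the labels.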

How the results depend on the processing

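No paired analysis was possible because the table holds 1 pool per condition and cell type, and no replicate could be left out for the same reason. None of the called values of named genes changed sign while called, but medians of several lists near 0 changed sign. Among results that answer a comparison 330 values stayed within their limits and 42 moved; for named genes these were 296 and 34. With log2(CP10K + a pseudocount of 0.01 times 0.379), which also moved the median of all kept genes to 0.20, 2996 genes were higher and 1547 lower in WT, 1037 and 1161 in the mutant, and 655 and 441 were not shared with beta cells. WT list medians were then -1.01 for small molecule receptors, -0.54 for sodium and cation channels, -0.91 for neuronal adhesion genes, 0.84 for RNA processing, 0.39 for metabolism and 1.4 for ribosomal proteins, and the mutant median for stress genes was 0.40. With a pseudocount of 0.379 the counts were 842 and 614 in WT, 45 and 53 in the mutant, and 98 and 155 not shared. At a 2-fold threshold they were 13 and 65, 0 and 0, and 0 and 19. With the median set to 0 the mutant had 0 lower and 0 higher genes were not shared, and the WT medians of islet transcription factors (-0.04), circadian genes (-0.04) and long noncoding RNAs (-0.03) changed sign; with mitochondrial and ribosomal RNA linked genes taken out of the totals, which leaves those genes out of the count, the mutant had 0 higher. Removing the length trend left 121 lower genes in WT and 0 in the mutant, 1 higher gene not shared, and a neuronal adhesion median of 0.026. The WT medians of exocytosis (0.0044), calcium (0.025) and granule genes (0.015), and of islet transcription factors (-0.06), metabolism (-0.02), circadian (-0.06), ribosomal protein (-0.009), respiratory chain (-0.02) and stress genes (-0.07), also changed sign there. A filter at the 75th percentile left 1 higher gene not shared.

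The count not shared with beta cells depended on its rule. With any difference of the same sign counted as shared, 1 higher and 40 lower genes were not shared. With every call not past the full threshold in beta cells counted as not shared, and no minimum on the delta minus beta difference, they were 96 and 193, and against alpha in place of beta cells 6 were higher. Rules added after the data were seen gave 21 and 48 (ratio intervals apart) and 1 and 2 (beta cell level at least 1 CP10K). Depth limits low genes: 3 counts stand for 0.0828 CP10K in WT CON delta cells and 0.00996 in WT CON beta cells.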

Other observations

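Gene groups without a call in WT delta cells included the 23 kept genes of cholesterol and lipid synthesis (median 0.07 in WT and 0.01 in the mutant) and the 12 of stress and heat shock (0.08 and 0.07). Of 24 kept genes of the endoplasmic reticulum stress and folding list, Calr, a calcium-binding chaperone, was higher and Ero1b lower. Among 30 kept insulin and growth factor signalling genes Mtor was higher and 6 were lower, among them Fgf12, Fgf14, Fgfr2, Foxo3 and Mapk10. The lower genes were 20% of this list, against 3.32% of all kept genes. Over 200 kb 5 of 8 members were lower, against 27.0% of all kept genes of that length. With the length trend removed 2 were higher and 2 lower, and Fgfr2 (0.10), Mapk10 (-0.37) and Foxo3 (-0.55) were not called. Of 18 circadian clock genes Npas2 alone was lower. Among 11 long noncoding RNAs Gas5 was higher and Lncpint lower. Calr (0.46), Npas2 (-0.48) and Lncpint (-0.52) were not called with the length trend removed, whereas Ero1b and Gas5 were.

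Alpha cell markers in the delta cell pools summed to 3.01 CP10K in WT CON and 1.95 in WT Ex-4. Pancreatic polypeptide cell markers summed to 2.95 and 2.71, ductal markers to 1.46 and 1.27, and endothelial markers to 0.0828 and 0.278. None of the 8 acinar markers was among the measured genes.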
